A study of Homo sapiens with 15 samples.

Results

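The genes examined here are the collagen chain genes: the protein-coding genes whose symbol has the form COL, a type number, A and a chain number. The table holds 57736 genes, and 44 of them are such genes. By the structure their proteins form, 11 code for chains of fibrillar collagens, 9 for chains of network-forming collagens and 24 for the remaining types (beaded filaments, anchoring fibrils, fibril-associated collagens, transmembrane collagens and multiplexins, with COL26A1 and COL28A1 left unclassed). The cells were IMR90, fibroblasts of human fetal lung, and RNA was counted in 15 libraries made from the 3′ ends of transcripts, 3 for each of 5 groups.

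Control cells received a retrovirus without insert and a non-targeting siRNA. In every other group the retrovirus expressed the oncogene RAS, which is known to make fibroblasts senescent, that is, to end their division for good. These groups differed in what followed. The siControl RAS cells were given the same non-targeting siRNA. Knockdown cells were given siMETTL14, an siRNA against METTL14, and a lentivirus with vector only, and the add-back cells were given siMETTL14 and a lentivirus with METTL14, either wild-type or with the R298P substitution. METTL14 is a subunit of the METTL3-METTL14 complex that places N6-methyladenosine on RNA, and R298P is known to impair that activity. siRNA was first transfected on day 4 after the retrovirus, the second siRNA and the lentivirus came on the next day, and RNA was taken 48 h later. All 5 groups therefore went through a retrovirus and siRNA transfection. The RAS isoform, whether siControl RAS cells also carried a lentiviral vector, and whether replicates were separate cultures are not stated in the sources used, so p-values measure the spread between these libraries, which may be technical. IMR90 is 1 line, so other fibroblasts are not represented.

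Collagens are triple helices of 3 polypeptide chains, which may be copies of 1 chain or products of different genes. Fibrillar collagens (types I, II, III, V, XI, XXIV and XXVII) assemble into banded fibrils that give tissue its tensile strength, and network-forming collagens (types IV, VIII and X) make sheets and lattices, of which type IV is the scaffold of basement membranes. Fibroblasts are the main source of types I, III, V and VI in connective tissue, and lung fibroblasts lay down much of the fibrous collagen of the lung interstitium.

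Library totals ran from 4917661 to 7763084 counts, with a median of 5853195. METTL14 stood at 22.0 ± 3.66 normalised CPM (counts scaled to a common library size; mean ± SD, n = 3 in every group) in siControl RAS and 6.08 ± 2.88 CPM in knockdown cells, a log2 difference of -1.91 (edgeR quasi-likelihood test, adjusted p = 5.49e-06). It reached 545 ± 32.0 CPM with wild-type and 945 ± 80.4 CPM with R298P METTL14, so the add-backs were not at equal levels. All 10 fibroblast markers (VIM, THY1, PDGFRA, DCN and others) passed the filter on low counts, and their summed level was 4591 to 6981 CPM across libraries. The epithelial markers CDH1, KRT5, KRT14 and GRHL2, the endothelial markers CDH5 and ERG and the leukocyte marker CD3E were at 0 counts in every library. Other genes of these lists were detected, among them KRT18 (57.2 CPM in control), KRT19 (51.1 CPM in control), TEK (17.4 to 36.1 CPM as group means) and CD68 (18.8 CPM in siControl RAS). In a principal component analysis, replicate 1 of the knockdown cells stood apart from the other 14 libraries on the third component, at 40.8 against -20.2 to 7.41. Collagen results that change without that library are given with both values. In bulk RNA, fewer cells that express a gene and less of its RNA per cell cannot be told apart.

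Type IV chain genes lie head to head in pairs that share a start region, and 2 of these pairs had both genes tested; COL4A3 and COL4A4 form another, too low to test. Since members of each pair are compared below, the sequence between their start sites is shown, taken from RefSeq's promoter windows on GRCh38.p14, each with 250 bases before and 50 bases after a start. The start sites of COL4A1 and COL4A2 lie 127 bases apart on chromosome 13, and those of COL4A5 and COL4A6 lie 380 bases apart on chromosome X (for COL4A6, 1 of 2 RefSeq windows). Capitals mark CCAAT and GGGCGG, the core letters of the CCAAT box and the GC box, read on either strand (ATTGG and CCGCCC in reverse). The first line runs 5′ to 3′ on the plus strand, towards COL4A2 (chr13:110307158-110307283). The COL4A5 line is the plus strand (chrX:108439588-108439837) and the COL4A6 line the minus strand (chrX:108439459-108439708), each ending at the base before that gene's start.
Between COL4A1 and COL4A2: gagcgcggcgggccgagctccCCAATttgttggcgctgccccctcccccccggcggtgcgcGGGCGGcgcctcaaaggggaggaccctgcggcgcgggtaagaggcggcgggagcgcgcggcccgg
COL4A5: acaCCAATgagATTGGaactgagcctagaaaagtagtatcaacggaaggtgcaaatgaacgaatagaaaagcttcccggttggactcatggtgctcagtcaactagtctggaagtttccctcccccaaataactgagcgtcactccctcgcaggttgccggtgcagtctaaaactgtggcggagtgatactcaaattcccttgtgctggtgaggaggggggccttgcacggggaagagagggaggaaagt
COL4A6: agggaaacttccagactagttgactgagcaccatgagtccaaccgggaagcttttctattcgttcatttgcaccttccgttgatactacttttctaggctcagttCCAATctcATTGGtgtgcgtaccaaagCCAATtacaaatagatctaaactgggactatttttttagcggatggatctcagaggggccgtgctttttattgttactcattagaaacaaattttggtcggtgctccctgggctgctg
The stretch between COL4A1 and COL4A2 is 80.2% G and C and holds 1 CCAAT and 1 GGGCGG. The COL4A5 and COL4A6 stretches are 51.2% and 44.0% G and C, hold 2 and 3 CCAAT matches and no GGGCGG, and overlap by 121 bases. RefSeq windows were matched for 32 of the 44 collagen genes, as 44 windows. CCAAT occurred in 14 of those windows (31.8%), against 34.6% of all 35116 windows. GGGCGG occurred in 24 (54.5%, against 45.0% of all windows), and TATAAA, the letters of the TATA box, in 8 (18.2%, against 11.5%). Windows of 1 gene or of a head-to-head pair share bases, these shares were not tested, and a match is only a run of letters.

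Of the 44 collagen genes, 27 passed the filter on low counts and were tested, and 23 reached a group mean of at least 10 CPM. Another 6 were at 0 counts in all 15 libraries (COL6A6, COL9A1, COL20A1, COL22A1, COL23A1 and COL28A1). The remaining 11 had some counts but were too low to test (COL2A1, COL4A3, COL4A4, COL6A5, COL8A2, COL9A3, COL11A2, COL17A1, COL19A1, COL21A1 and COL26A1), with at most 18 counts in a library. Among these was COL2A1, the chain of the main cartilage collagen, while COL4A3 and COL4A4 are type IV chains of kidney and lung basement membranes. The 27 tested genes include those that passed only because they were high in some group, so counts over them do not describe all 44. The low-count filter left 13516 genes of the whole table, over which all p-values are adjusted, and a gene is called when its adjusted p is under 0.05. Because each transcript gives about 1 tag at its 3′ end whatever its length, CPM levels are set side by side between genes without division by length. Whether the 3′ ends of different genes were counted equally well was not checked, so levels and ratios between genes are approximate.

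The first comparison asks how RAS changed collagen expression, siControl RAS against control. Collagen transcripts took up 0.924%, 0.923% and 0.879% of all counts in the 3 control libraries and 3.00%, 2.93% and 2.87% in the siControl RAS libraries. Of the 27 tested genes 23 rose and 1 fell, where 24% of all tested genes rose and 21.9% fell. All 9 tested fibrillar genes and all 6 tested network genes rose, and of the 12 tested genes of other types 8 rose and 1 fell. The median log2 difference was 2.01 over the 27 genes, 2.06 over the fibrillar, 2.26 over the network and 1.33 over the other genes, beside a median of -0.004 over all tested genes. The network median includes COL10A1 (log2 6.35), which had 4 counts in control and passed the filter through the RAS groups. The class medians are therefore not ranked. For 25 of the 27 the libraries of the groups did not overlap, as for 54.2% of all tested genes. Among the 2111 genes with a mean of at least 100 CPM, 38.9% rose, and all 13 collagen genes at that level did.

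Type I collagen, the main fibril protein of bone, skin and lung interstitium, is built from 2 chains of COL1A1 and 1 of COL1A2. COL1A1 (ENSG00000108821) stood at 2820, 2748 and 2526 CPM in control and at 12392, 11914 and 11382 CPM in siControl RAS, a 4.41-fold rise (log2 difference 2.14 ± 0.048 SE, edgeR adjusted p = 2.88e-28). COL1A2 (ENSG00000164692) stood at 1217, 1292 and 1259 CPM in control and at 5291, 5240 and 5171 CPM in siControl RAS, a 4.17-fold rise (log2 2.06 ± 0.055 SE, edgeR adjusted p = 3.21e-26). In both genes each siControl RAS library lay far above every control library. Ranked by mean CPM among all genes, COL1A1 went from rank 18 in control to rank 2, and COL1A2 from rank 70 to rank 11. The count ratio of COL1A1 to COL1A2 was 2.01 to 2.32 in control and 2.20 to 2.34 in siControl RAS, overlapping ranges.

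Type III collagen, which forms fine fibrils with type I in distensible tissues, had the largest change of the fibrillar genes. COL3A1 (ENSG00000168542) stood at 135, 157 and 140 CPM in control and at 1293, 1403 and 1350 CPM in siControl RAS, a 9.38-fold rise (log2 3.23 ± 0.068 SE, edgeR adjusted p = 4.14e-29). There were 17.5 to 21.0 COL1A1 counts per COL3A1 count in control and 8.43 to 9.59 in siControl RAS, so the libraries of the groups did not overlap. In rank among all genes COL3A1 moved from 1377 to 77.

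Type V collagen nucleates type I fibrils and limits their width. COL5A1 rose from 202 ± 12.2 to 576 ± 12.7 CPM and COL5A2 from 198 ± 1.32 to 676 ± 40.0 CPM, log2 differences of 1.51 and 1.77 (edgeR adjusted p = 3.55e-19 and 1.94e-21). COL5A3, a rarer type V chain, rose from 2.58 ± 1.66 to 10.4 ± 3.20 CPM. COL11A1, whose chain joins cartilage fibrils and is also made by activated fibroblasts, rose from 14.6 ± 2.96 to 43.3 ± 6.03 CPM. The minor fibrillar genes COL24A1 and COL27A1 rose from 1.46 ± 0.593 to 8.50 ± 0.603 CPM and from 35.8 ± 10.6 to 169 ± 10.7 CPM. Over the fibrillar class the log2 differences ran from 1.51 in COL5A1 to 3.23 in COL3A1.

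**Figure D1:**
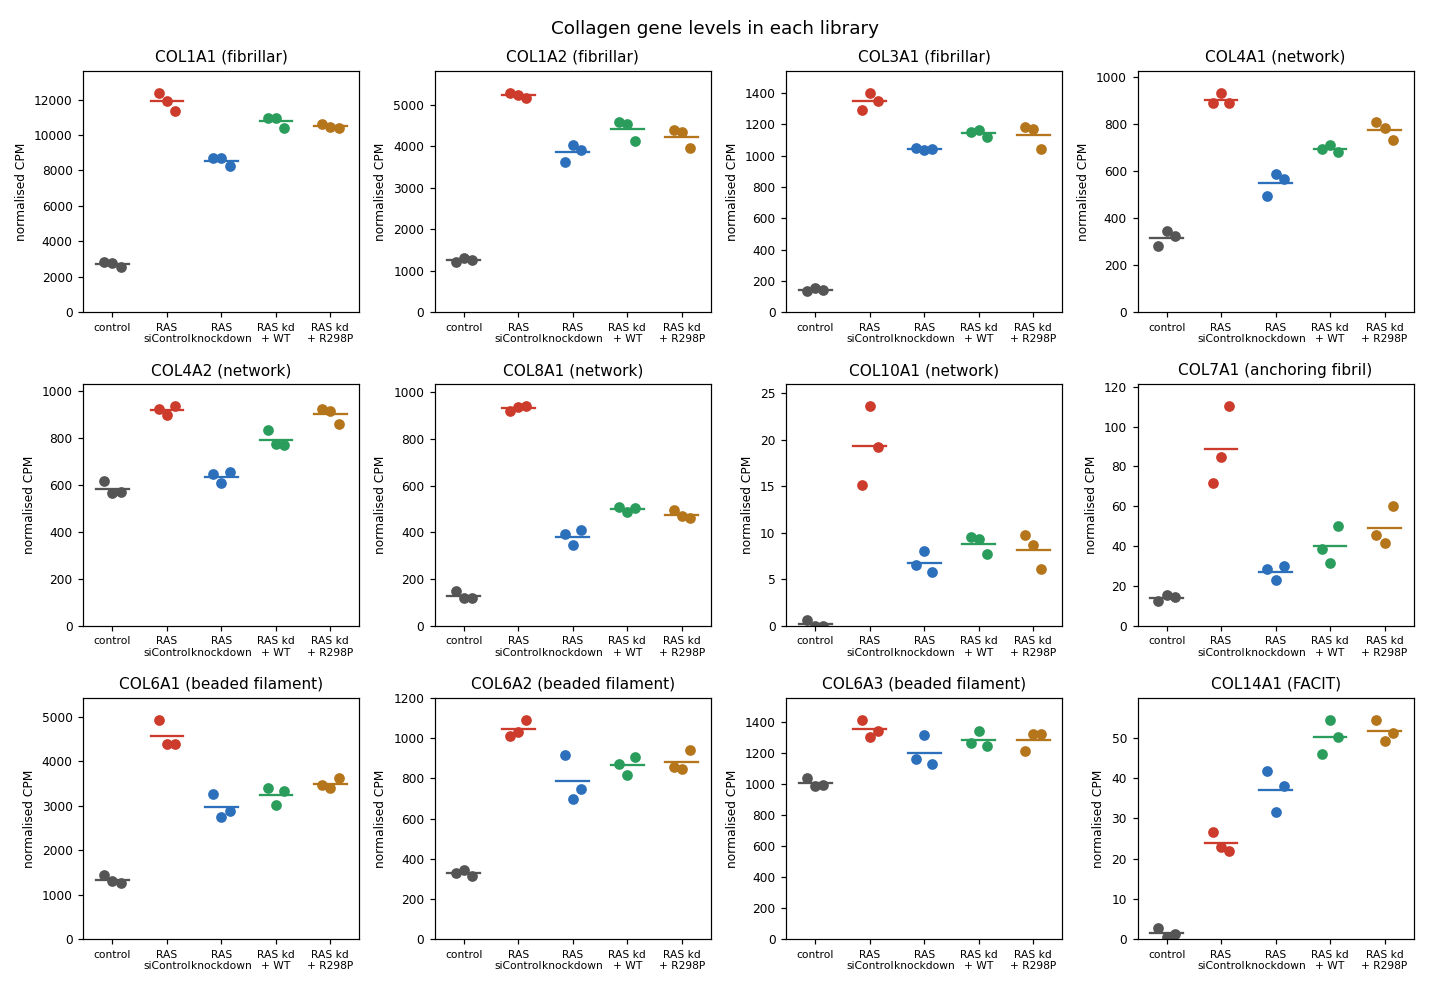
Normalised CPM (linear axis from 0) of collagen genes in the 15 libraries; each point is 1 library, each bar the mean of a group of 3, and the groups are control, siControl RAS, knockdown, wild-type add-back and R298P add-back. COL1A1 lies at 2526 to 2820 CPM in control and at 11382 to 12392 CPM in siControl RAS, with knockdown libraries between them.

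Type IV collagen of most basement membranes is built from 2 chains of COL4A1 and 1 of COL4A2. COL4A1 (ENSG00000187498) stood at 279, 344 and 324 CPM in control and at 887, 933 and 889 CPM in siControl RAS (log2 1.52 ± 0.072 SE, edgeR adjusted p = 7.19e-19). Its head-to-head partner COL4A2 (ENSG00000134871) stood at 615, 565 and 570 CPM in control and at 922, 896 and 934 CPM in siControl RAS (log2 0.65 ± 0.060 SE, edgeR adjusted p = 2.90e-11). Both rose without overlap, COL4A1 by 2.86-fold and COL4A2 by 1.57-fold, and the number of COL4A2 counts per COL4A1 count went from 1.64 to 2.20 in control to 0.96 to 1.05 in siControl RAS. The other pair codes for chains of basement membranes of smooth muscle and some epithelia. COL4A5 rose from 13.9 ± 1.13 to 76.9 ± 14.4 CPM and COL4A6 from 2.38 ± 0.513 to 10.1 ± 2.95 CPM, log2 differences of 2.46 and 2.06 (edgeR adjusted p = 1.97e-16 and 8.85e-05).

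COL8A1, a chain of the short network collagen found beneath endothelium and in remodelling vessel walls, was the network gene with the largest rise among those above 100 CPM. COL8A1 (ENSG00000144810) stood at 148, 116 and 117 CPM in control and at 920, 937 and 941 CPM in siControl RAS, a 7.32-fold rise (log2 2.87 ± 0.082 SE, edgeR adjusted p = 2.38e-25). COL10A1 codes for type X collagen, the network collagen of hypertrophic cartilage. COL10A1 (ENSG00000123500) stood at 0.625, 0 and 0 CPM in control and at 15.1, 23.6 and 19.3 CPM in siControl RAS (edgeR adjusted p = 4.09e-12). With 4 counts in control and 345 in siControl RAS, the ratio of its normalised counts was 87.2, with an exact 95% interval of 33.7 to 322 that covers counting error only. Of the chondrocyte markers in the same libraries, CNMD was at 0 in every library and the summed level of the list was 248 to 267 CPM in control and 83.0 to 91.6 CPM in siControl RAS, nearly all of it SOX9 (252 ± 8.27 and 79.2 ± 5.80 CPM). Their part in the collagen values was not tested.

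Type VI collagen forms beaded microfilaments around cells from chains of COL6A1, COL6A2 and COL6A3 in equal number. COL6A1 (ENSG00000142156) stood at 1434, 1317 and 1261 CPM in control and at 4935, 4388 and 4384 CPM in siControl RAS (log2 1.77 ± 0.065 SE, edgeR adjusted p = 3.15e-20). COL6A2 (ENSG00000142173) stood at 327, 344 and 312 CPM in control and at 1010, 1030 and 1092 CPM in siControl RAS (log2 1.67 ± 0.077 SE, edgeR adjusted p = 4.43e-18). COL6A3 (ENSG00000163359) stood at 1040, 985 and 996 CPM in control and at 1415, 1301 and 1341 CPM in siControl RAS (log2 0.43 ± 0.061 SE, edgeR adjusted p = 4.04e-07). All 3 rose without overlap, by 3.42-fold, 3.18-fold and 1.34-fold. The number of COL6A1 counts per COL6A3 count went from 1.27 to 1.38 in control to 3.27 to 3.49 in siControl RAS.

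The remaining types did not move as 1 block. COL7A1, the chain of the anchoring fibrils that tie basement membrane to dermis, stood at 12.2, 15.5 and 14.5 CPM in control and at 71.7, 84.7 and 110 CPM in siControl RAS, a 6.32-fold rise (log2 2.66 ± 0.193 SE, edgeR adjusted p = 8.72e-13). Among collagens that sit on the surface of fibrils, COL12A1 rose from 191 ± 20.4 to 879 ± 68.9 CPM and COL16A1 from 10.7 ± 1.79 to 21.2 ± 2.58 CPM. COL14A1 (ENSG00000187955), another fibril-associated chain, stood at 2.81, 0.494 and 1.33 CPM in control and at 26.7, 22.9 and 21.7 CPM in siControl RAS (log2 3.91 ± 0.274 SE, edgeR adjusted p = 3.39e-14). Fibril-associated COL9A2 was at 1.64 ± 1.04 and 3.10 ± 0.221 CPM and did not pass the test (edgeR adjusted p = 0.399).

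COL13A1, a transmembrane collagen of cell-matrix contacts, was the tested collagen gene that fell. COL13A1 (ENSG00000197467) stood at 95.3, 92.2 and 85.3 CPM in control and at 38.3, 33.9 and 40.5 CPM in siControl RAS, 2.42-fold lower (edgeR adjusted p = 6.85e-10), with no overlap. The transmembrane chain COL25A1 had 4 counts in control and 37 in siControl RAS, a ratio of 9.35 (exact 95% interval 3.36 to 36.1, counting error only). Its call (edgeR adjusted p = 0.0243) was lost without control replicate 1, control replicate 2 or siControl RAS replicate 3 (adjusted p 0.0622 to 0.103). The multiplexins, whose C-terminal fragments include endostatin, did not pass the test: COL18A1 was at 46.6 ± 6.32 and 40.4 ± 6.18 CPM and COL15A1 at 2.25 ± 1.08 and 1.47 ± 0.512 CPM. Among the untested genes COL17A1, a transmembrane chain of epithelial hemidesmosomes, stood at 2.50, 1.32 and 0 CPM in control and was at 0 in every siControl RAS library, so 1 control library did not differ from them.

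The second comparison sets knockdown cells, given siMETTL14 and a vector lentivirus, against siControl RAS cells. Whether the latter also carried a lentiviral vector is not stated, so effects of siMETTL14 and of the lentivirus cannot be told apart. Changes named as with knockdown refer to this comparison. The collagen share of all counts was 2.25%, 2.24% and 2.18% in the knockdown libraries, below each siControl RAS library and above each control library. Of the 27 tested genes 14 fell and 2 rose, where 8.06% of all tested genes fell and 7.47% rose. The falls took in 5 of 9 fibrillar, 4 of 6 network and 5 of 12 other genes, and the median log2 difference was -0.42 over the 27 genes, -0.40 in the fibrillar, -0.83 in the network and -0.33 in the other genes, beside -0.003 over all tested genes. For 19 of the 27 the libraries of the groups did not overlap, as for 30% of all tested genes. Of the 13 collagen genes with a mean of at least 100 CPM 11 fell, where 17.1% of all genes at that level did. Each of the 14 that fell had risen with RAS, but so had 23 of all 27 tested collagen genes, so most of any 14 would have. The comparisons also share the siControl RAS libraries, so a high value there moves both. The share of all tested genes that did both was not counted. A further 8 genes that had risen with RAS were not called here. Without knockdown replicate 1 the counts were 13 lower and 0 higher.

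Among the called collagen genes above 100 CPM, the network genes COL8A1 and COL4A1 had the largest falls. COL8A1 stood at 392, 345 and 409 CPM in knockdown cells, 2.44-fold below siControl RAS (log2 -1.29 ± 0.076 SE, edgeR adjusted p = 3.13e-15). COL4A1 stood at 494, 585 and 568 CPM and fell by 0.72 ± 0.071 (SE) on the log2 scale (edgeR adjusted p = 1.20e-09). COL4A2 stood at 645, 607 and 652 CPM and fell by 0.53 ± 0.060 (SE) on the log2 scale (edgeR adjusted p = 2.00e-08). In these 3 genes every knockdown library lay below every siControl RAS library. COL10A1 fell to 6.50, 8.03 and 5.75 CPM, 2.84-fold below siControl RAS (edgeR adjusted p = 0.00186). For COL4A5 (61.4 ± 2.45 CPM) and COL4A6 (5.16 ± 1.99 CPM) the test was not passed, with adjusted p = 0.0830 and 0.0976. Each passed with 1 library left out, COL4A5 without siControl RAS replicate 1 (adjusted p = 0.0111) and COL4A6 without knockdown replicate 2 (adjusted p = 0.0467).

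The 5 fibrillar genes that fell did so by 0.37 to 0.62 on the log2 scale. COL1A1 stood at 8704, 8692 and 8247 CPM in knockdown cells, 1.39-fold below siControl RAS (log2 -0.48 ± 0.046 SE, edgeR adjusted p = 9.00e-10). COL1A2 stood at 3628, 4038 and 3902 CPM, 1.36-fold lower (log2 -0.44 ± 0.052 SE, edgeR adjusted p = 6.57e-08), and COL3A1 at 1050, 1035 and 1046 CPM, 1.29-fold lower (edgeR adjusted p = 2.52e-05). None of these libraries reached the siControl RAS range. COL5A1 fell to 438 ± 41.8 CPM and COL27A1 to 110 ± 7.61 CPM. COL5A2, at 630 ± 19.3 CPM, had a log2 difference of -0.10 ± 0.066 (SE) and was not called (edgeR adjusted p = 0.354), and COL5A3, COL11A1 and COL24A1 were not called either (adjusted p 0.0887 to 0.969), though COL24A1 was without knockdown replicate 3 (adjusted p = 0.0464).

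Of the called genes of other types COL7A1 fell most, to 28.7, 22.7 and 30.2 CPM, 3.27-fold below siControl RAS (log2 -1.71 ± 0.182 SE, edgeR adjusted p = 2.18e-08). COL9A2, at 0.505 ± 0.106 CPM, was not called by edgeR (adjusted p = 0.0640) but was by DESeq2 (adjusted p = 0.0382) and with only the 2 groups compared (adjusted p = 0.0279). In type VI, COL6A1 stood at 3255, 2749 and 2880 CPM and fell 1.54-fold (edgeR adjusted p = 7.14e-09), and COL6A2 at 917, 699 and 748 CPM and fell 1.33-fold (edgeR adjusted p = 1.52e-04). COL6A3 was at 1160, 1320 and 1127 CPM, overlapping siControl RAS, and was not called (edgeR adjusted p = 0.0535). It was called as lower by DESeq2 (adjusted p = 0.0328), limma-voom (adjusted p = 0.0169), edgeR with DESeq2-type size factors (adjusted p = 0.0499) or a replicate block (adjusted p = 0.0349), and without knockdown replicate 2 (adjusted p = 0.00585). COL12A1 fell to 735 ± 20.7 CPM (edgeR adjusted p = 0.0181) and COL16A1 to 12.1 ± 1.88 CPM (edgeR adjusted p = 0.0271). COL12A1 was no longer called without siControl RAS replicate 1, siControl RAS replicate 2 or knockdown replicate 3. For COL16A1 the same held of these 3 libraries and of knockdown replicate 1, with adjusted p from 0.0501 to 0.115 over both genes.

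The 2 genes that rose with knockdown were COL14A1 and COL18A1. COL14A1 stood at 41.7, 31.6 and 38.1 CPM, all above the 21.7 to 26.7 CPM of siControl RAS (log2 0.64 ± 0.190 SE, edgeR adjusted p = 0.0178). COL18A1, the type XVIII chain of vascular and epithelial basement membranes, was at 54.0 ± 2.94 CPM against 40.4 ± 6.18 CPM (log2 0.42 ± 0.141 SE, edgeR adjusted p = 0.0362). COL14A1 lost its call when any of 4 libraries was left out (replicates 2 and 3 of siControl RAS, replicates 1 and 3 of knockdown; adjusted p 0.0547 to 0.0756). COL18A1 lost it when replicate 1 of siControl RAS, replicate 1 of knockdown or replicate 3 of knockdown was left out singly, and with only the 2 groups compared (adjusted p 0.0533 to 0.232).

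**Figure D2:**
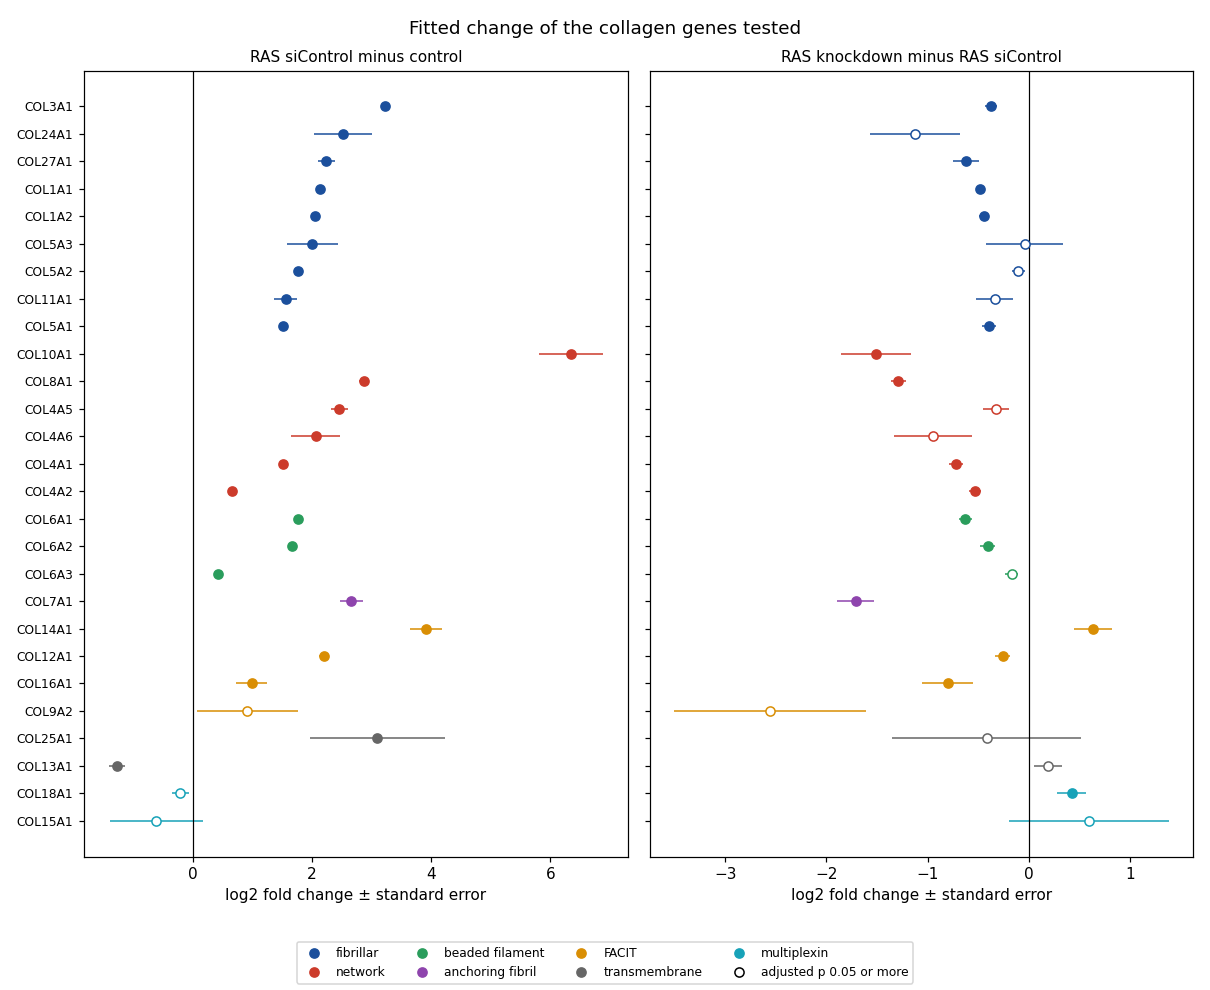
Fitted log2 differences of the 27 tested collagen genes, grouped by structural class, for siControl RAS against control and for knockdown against siControl RAS; points are estimates, bars are 1 SE, filled points passed the test, and FACIT stands for fibril-associated collagens. In the RAS comparison 23 of 27 genes are called to the right of 0, and in the knockdown comparison 14 are called to the left.

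Set against control, knockdown cells still held more collagen RNA: 20 of the 27 genes were higher and 1 was lower, where 19.2% of all tested genes were higher and 16.7% lower. All 9 fibrillar genes, 5 of 6 network genes and 6 of 12 other genes were higher, with a median log2 difference of 1.26. Of the 14 genes that fell with knockdown, 12 were still above control, beside 20 of all 27 tested collagen genes. The exceptions were COL4A2, at 634 ± 24.4 CPM against 583 ± 27.7 CPM in control (log2 0.12, edgeR adjusted p = 0.116), and COL16A1, at 12.1 ± 1.88 against 10.7 ± 1.79 CPM (log2 0.19, edgeR adjusted p = 0.623). COL13A1 was the lower gene, at 42.9 ± 7.83 CPM against 91.0 ± 5.12 CPM in control (edgeR adjusted p = 3.01e-08). COL24A1 (adjusted p = 0.0275) lost its call without replicate 1 or 2 of control or replicate 2 or 3 of knockdown, with limma-voom, and with only the 2 groups compared, at adjusted p 0.0537 to 0.198. COL4A6 (adjusted p = 0.0371) lost it without replicate 1 or 3 of control or replicate 2 of knockdown, with DESeq2, with limma-voom, and with only the 2 groups compared, at adjusted p 0.0535 to 0.242.

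The makeup of collagen RNA also differed between the groups, as shares of the counts of all 44 genes in a library. Fibrillar genes held 52.4% to 53.4% in control, 64.3% to 65.1% in siControl RAS and 65.1% to 67.2% in knockdown cells. Network genes held 11.9% to 12.4%, 8.86% to 9.56% and 7.13% to 7.81% in the same groups, and other types 34.7% to 35.6%, 25.5% to 26.6% and 25.5% to 27.7%. The network share thus did not overlap between any of these 3 groups. Summed over the class, mean CPM went from 1044.5 in control to 2861 in siControl RAS for network genes. For fibrillar genes it went from 4552.5 to 19962 CPM. COL4A2, which rose 1.57-fold, held the largest part of the network counts in control. COL3A1 went from 1.52% to 1.79% of collagen counts in control to 4.07% to 4.55% in siControl RAS. With 3 libraries a group the smallest p of an exact permutation test is 0.1, so these shares and the count ratios are given as ranges.

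**Figure D3:**
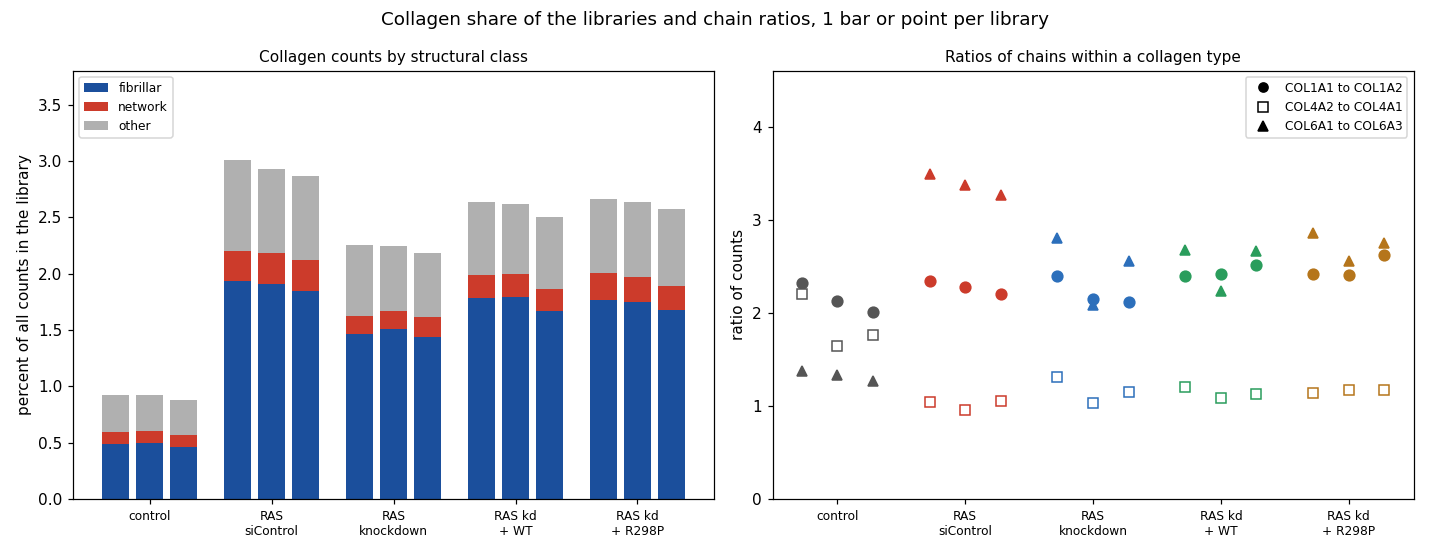
Left, collagen counts as percent of all counts, 1 stacked bar per library, split into fibrillar, network and other genes; right, count ratios of chain genes of types I, IV and VI, 1 point per library. Bars reach 0.879% to 0.924% in control, 2.87% to 3.00% in siControl RAS and 2.18% to 2.25% in knockdown cells, and the COL6A1 to COL6A3 ratio lies at 1.27 to 1.38 in control and at 2.08 or above in every RAS library.

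The third question is what adding METTL14 to knockdown cells did, each add-back against knockdown cells with vector. METTL14 stood at 545 CPM with wild-type and 945 CPM with R298P METTL14, both far above the 22.0 CPM of siControl RAS. Few genes of the whole table were called: 0.326% rose with wild-type and 0.54% with R298P METTL14, and 0.296% and 0.555% fell. Of the 27 collagen genes 4 rose with wild-type METTL14 (COL1A1, COL4A1, COL4A2 and COL8A1). With R298P METTL14 6 rose, the same 4 with COL5A1 and COL7A1. No collagen gene fell with either add-back by edgeR, DESeq2 or limma-voom, and 0 were lower at an unadjusted p under 0.05, while 12 and 13 were higher at that level, where 3.99% and 4.59% of all tested genes were higher. The median log2 difference over the 27 genes was 0.20 with wild-type and 0.23 with R298P METTL14, and the libraries did not overlap for 10 genes in each comparison, as for 13% and 15% of all tested genes. All 6 genes called with an add-back had fallen with knockdown, but the comparisons share the knockdown libraries, so a low value there moves both. How many of all tested genes did the same was not counted, so this is no result about collagen genes. The collagen share of all counts was 2.50% to 2.63% with wild-type and 2.58% to 2.67% with R298P METTL14, above the knockdown and below the siControl RAS libraries.

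COL1A1 stood at 10979, 10980 and 10374 CPM with wild-type METTL14, a log2 difference of 0.33 ± 0.046 (SE) from knockdown cells (edgeR adjusted p = 1.80e-05). With R298P METTL14 it stood at 10599, 10467 and 10405 CPM (edgeR adjusted p = 1.48e-04). All 6 add-back libraries lay above every knockdown library and below every siControl RAS library. COL1A2 stood at 4586, 4539 and 4132 CPM with wild-type and at 4388, 4344 and 3969 CPM with R298P METTL14, and was not called in either (edgeR adjusted p = 0.0854 and 0.338). The wild-type difference in COL1A2 was called by DESeq2 (adjusted p = 0.0116), limma-voom (adjusted p = 0.0164) and edgeR with a replicate block (adjusted p = 0.0324), and without knockdown replicate 2 (adjusted p = 0.0494) or wild-type replicate 3 (adjusted p = 0.0364). COL3A1, at 1151, 1165 and 1118 CPM and at 1181, 1171 and 1040 CPM, was not called in either (edgeR adjusted p = 0.609 and 0.625).

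The type IV pair was called with both add-backs. COL4A1 stood at 693, 711 and 682 CPM with wild-type METTL14 (log2 0.34 ± 0.071 SE, edgeR adjusted p = 0.00825) and at 809, 782 and 733 CPM with R298P METTL14 (log2 0.50, edgeR adjusted p = 2.67e-05). COL4A2 stood at 833, 772 and 770 CPM with wild-type METTL14 (log2 0.32, edgeR adjusted p = 0.00239) and at 923, 913 and 860 CPM with R298P METTL14 (log2 0.50, edgeR adjusted p = 1.04e-06). The COL4A2 libraries with R298P METTL14 overlapped the siControl RAS range of 896 to 934 CPM. For COL4A1 the wild-type call was lost without knockdown replicate 1 (adjusted p = 0.0977) or wild-type replicate 2 (adjusted p = 0.0712).

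COL8A1 stood at 507, 485 and 502 CPM with wild-type METTL14 (log2 0.38 ± 0.076 SE, edgeR adjusted p = 0.00454) and at 496, 468 and 463 CPM with R298P METTL14 (log2 0.32, edgeR adjusted p = 0.0231). Every add-back library lay above the 345 to 409 CPM of the knockdown and far below the 920 to 941 CPM of siControl RAS. Without knockdown replicate 2 both COL8A1 calls were lost (adjusted p = 0.0631 and 0.200), and the R298P call also without R298P replicate 1 or 2 and with only the 2 groups compared (adjusted p = 0.0767). COL7A1 stood at 38.6, 31.3 and 50.2 CPM with wild-type METTL14 (edgeR adjusted p = 0.298) and at 45.5, 41.7 and 60.2 CPM with R298P METTL14 (log2 0.85 ± 0.184 SE, edgeR adjusted p = 0.0112). The latter call was lost without R298P replicate 3 (adjusted p = 0.117) or knockdown replicate 2 (adjusted p = 0.104). COL5A1 stood at 498, 502 and 519 CPM with wild-type METTL14 (edgeR adjusted p = 0.266) and at 562, 560 and 594 CPM with R298P METTL14 (edgeR adjusted p = 8.25e-04).

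By edgeR no type VI gene was called with either add-back. COL6A1 stood at 3392, 3010 and 3327 CPM with wild-type METTL14 and at 3460, 3387 and 3629 CPM with R298P METTL14 (edgeR adjusted p = 0.648 and 0.0572). For R298P METTL14 COL6A1 was called by DESeq2 (adjusted p = 0.0190), with no filter (adjusted p = 0.00454) and with a replicate block (adjusted p = 0.00400). Without knockdown replicate 1, COL6A1 and COL6A2 passed the test for R298P METTL14 (adjusted p = 0.00375 and 0.0277). COL6A2, at 871, 815 and 908 CPM and at 854, 845 and 942 CPM, overlapped the knockdown libraries, as did COL6A3 at 1268, 1344 and 1247 CPM and at 1212, 1325 and 1321 CPM. COL14A1, which had risen with knockdown, stood higher still, at 46.1, 54.5 and 50.2 CPM with wild-type and at 54.4, 49.2 and 51.3 CPM with R298P METTL14, but was not called (edgeR adjusted p = 0.522 and 0.320). COL27A1 was at 149 ± 7.82 CPM with R298P METTL14 (edgeR adjusted p = 0.138) and was called there by limma-voom (adjusted p = 0.0239), with no filter (adjusted p = 0.00399) and with only the 2 groups compared (adjusted p = 0.0323). COL10A1 stood at 9.50, 9.28 and 7.70 CPM with wild-type and at 9.70, 8.69 and 6.08 CPM with R298P METTL14, and neither group was called. COL13A1 was at 48.7 ± 4.26 and 45.7 ± 3.05 CPM, also with no call.

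The last comparison sets R298P against wild-type METTL14. By edgeR 0 of the 27 collagen genes were called, beside 0.0222% of all tested genes, and 3 were higher at an unadjusted p under 0.05, where 2.43% of all tested genes were higher. DESeq2 called 1, COL4A2, and limma-voom called 0. The 3 genes were COL4A1, COL4A2 and COL5A1, whose log2 differences were 0.16, 0.18 and 0.18 (edgeR adjusted p = 0.980, 0.762 and 0.964). They were also the 3 collagen genes whose libraries did not overlap, where 11.7% of all tested genes do not. A call for COL5A1 and COL7A1 with R298P alone is therefore no shown difference between the add-backs, which also differed in METTL14 level.

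**Figure D4:**
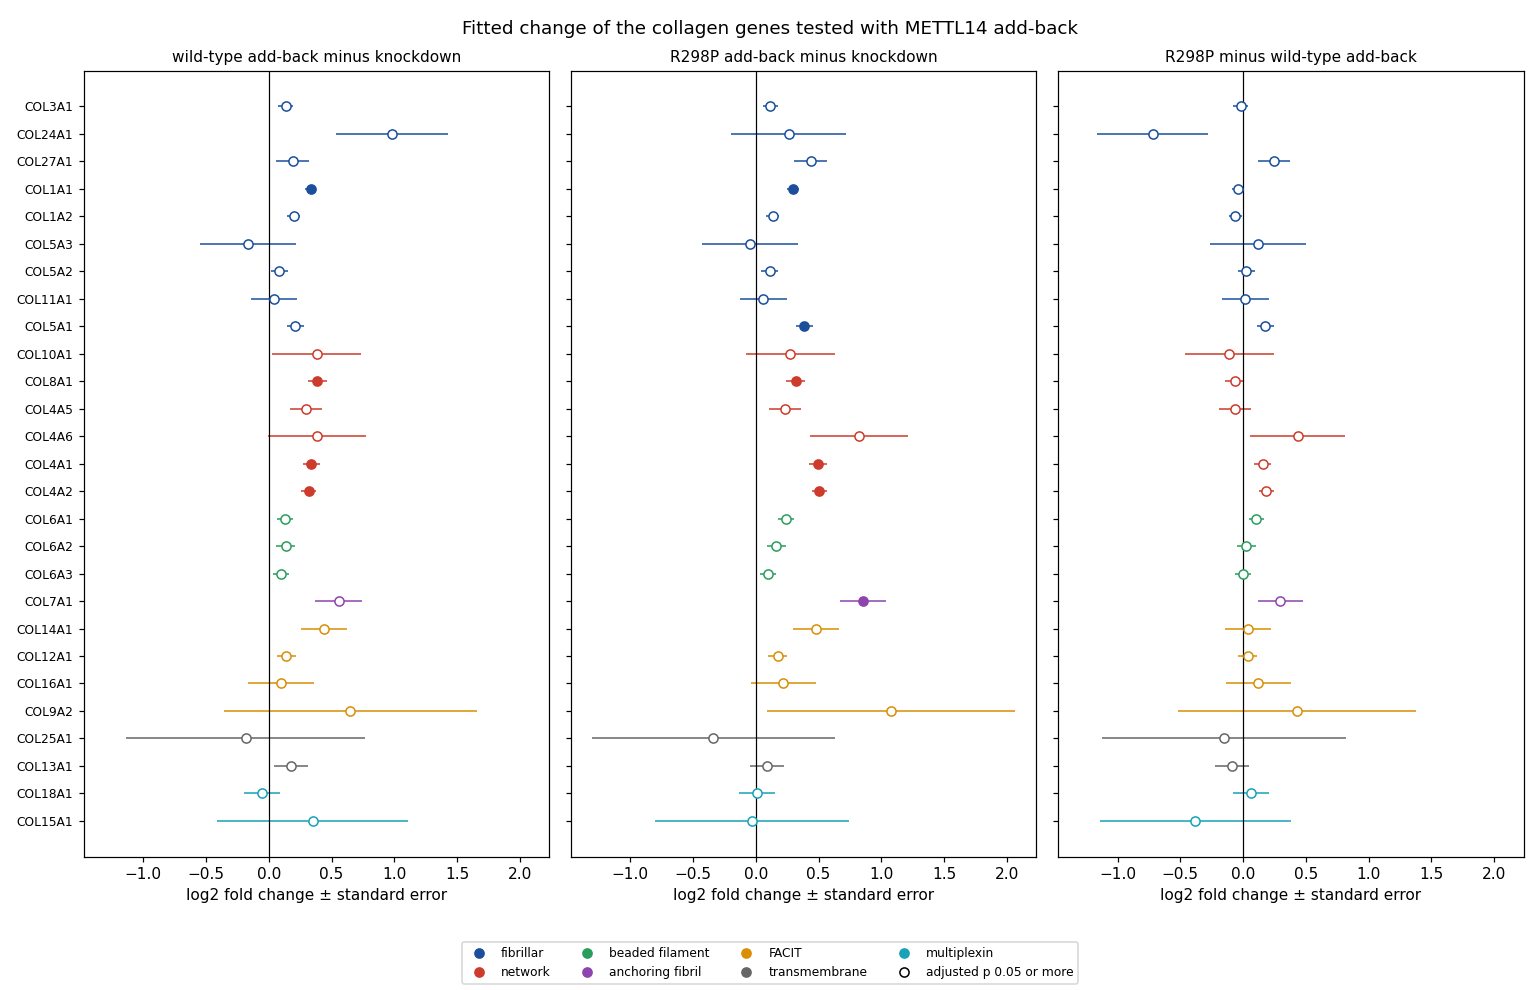
Fitted log2 differences of the 27 tested collagen genes for wild-type METTL14 against knockdown, R298P against knockdown and R298P against wild-type METTL14; points are estimates, bars are 1 SE, and filled points passed the test. Filled points number 4, 6 and 0 in the 3 panels.

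Collagen chains are hydroxylated and folded in the endoplasmic reticulum, trimmed and crosslinked outside the cell, bound by integrins and discoidin receptors, and cleared by collagenases, cathepsins and endocytic receptors; the genes for these steps were counted in lists. For all lists the shares to set beside the counts are those of all tested genes. With RAS 24% of these rose and 21.9% fell, and with knockdown 8.06% fell and 7.47% rose. In the folding and modification list 16 of 26 tested genes rose and 4 fell with RAS, and 7 fell and 2 rose with knockdown. PLOD2, the lysyl hydroxylase that prepares telopeptides for crosslinking, rose from 311 ± 15.1 to 1742 ± 110 CPM and fell to 1130 ± 200 CPM with knockdown (edgeR adjusted p = 3.69e-09 and 0.00368). P4HA2, a catalytic subunit of prolyl 4-hydroxylase, rose from 144 ± 17.3 to 675 ± 52.7 CPM and fell to 384 ± 9.99 CPM (edgeR adjusted p = 6.83e-23 and 1.41e-10). COLGALT2, a collagen galactosyltransferase, fell from 7.34 ± 3.23 to 1.65 ± 1.63 CPM with RAS (edgeR adjusted p = 0.0177).

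In the cleavage and crosslinking list 7 of 10 tested genes rose with RAS and 0 fell, and 3 fell and 0 rose with knockdown. LOXL4, a lysyl oxidase that starts crosslinks, rose from 4.65 ± 2.13 to 36.1 ± 4.39 CPM, and BMP1, which removes the C-propeptides of fibrillar collagens, had a log2 rise of 1.90 (edgeR adjusted p = 5.92e-13). Another lysyl oxidase, LOXL3, rose by 1.27 and fell by 1.42 on the log2 scale with knockdown (edgeR adjusted p = 7.57e-04). Of the breakdown and uptake list 6 of 7 tested genes rose and 1 fell with RAS, and 5 fell and 0 rose with knockdown. CTSK, a cathepsin that cuts triple helices, rose from 10.7 ± 1.26 to 162 ± 12.3 CPM and fell to 103 ± 7.54 CPM with knockdown (edgeR adjusted p = 3.93e-24 and 5.95e-06). MMP1, interstitial collagenase, had a mean of 156 CPM in control, 1241 CPM in siControl RAS and 649 CPM in knockdown cells. MMP2, a gelatinase that degrades denatured collagen, had means of 52.1, 199 and 132 CPM in the same groups. MRC2, the endocytic collagen receptor, had means of 141, 430 and 275 CPM.

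Of the collagen receptor list 6 of 8 tested genes rose and 1 fell with RAS, and 4 fell and 1 rose with knockdown. ITGA11, the integrin chain that binds fibrillar collagen on fibroblasts, rose from 3.68 ± 2.46 to 54.6 ± 0.837 CPM (edgeR adjusted p = 4.16e-12). ITGA1, the integrin chain that binds type IV collagen, had means of 118, 640 and 407 CPM in control, siControl RAS and knockdown cells, and rose with both add-backs (log2 0.58 and 0.68). In the list of matrix proteins that bind collagen 9 of 11 tested genes rose and 0 fell with RAS, and 8 fell and 1 rose with knockdown. LUM, a small proteoglycan that spaces fibrils, had means of 3.48, 64.4 and 25.5 CPM, and POSTN, which aids crosslinking, 4.29, 197 and 117 CPM. FN1, the fibronectin scaffold on which fibrils assemble, had means of 2833, 5372 and 2422 CPM and rose with both add-backs (log2 0.29 and 0.32). With wild-type METTL14 0, 0, 0, 1 and 2 genes of the 5 lists rose, with R298P METTL14 1, 2, 1, 1 and 2, and no list gene fell. Of all tested genes 0.326% rose with wild-type and 0.54% with R298P METTL14, and 0.296% and 0.555% fell.

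Other marker lists moved in the same comparisons, and their part in the collagen values was not tested. The summed level of 7 division genes in CPM was 1517 to 1662 in the control libraries, 87.3 to 102 in siControl RAS and 190 to 207 in knockdown cells. The fibroblast list summed to 6650 to 6981 CPM in the control libraries and 4591 to 4854 CPM in siControl RAS. In knockdown cells its sum was 5232 to 5723 CPM. The sum was carried by VIM, whose means were 5428 ± 163 CPM (control) and 2646 ± 108 CPM (siControl RAS). Of the 10 fibroblast genes 7 rose and 2 fell with RAS, where 24% of all tested genes rose and 21.9% fell. The myofibroblast and smooth muscle list (5 of 6 tested) summed to 1350 to 1476, 1612 to 1742 and 1739 to 1795 CPM in these groups and to 2149 to 2311 CPM with wild-type and 2177 to 2298 CPM with R298P METTL14. Within it ACTA2, smooth muscle actin, rose with wild-type and R298P METTL14 (log2 0.51 and 0.60, edgeR adjusted p = 3.99e-06 and 1.59e-07). The epithelial list summed to 138 to 151 CPM in control, 52.6 to 70.2 CPM with siControl RAS and 84.7 to 95.9 CPM with knockdown, without overlap. Of its 7 tested genes 2 rose and 3 fell with RAS. Most of the sum was KRT18 (means of 57.2 and 21.4 CPM in control and siControl RAS) and KRT19 (51.1 and 10.2 CPM). CLDN7 (2.63 and 7.62 CPM) and ELF3 (0.111 and 5.21 CPM) had higher means in siControl RAS. Sums for the endothelial list were 14.4 to 24.0 CPM in the control libraries and 31.7 to 35.5 CPM in siControl RAS. The leukocyte list summed to at most 7.97 CPM in any control library and to at most 23.7 CPM in any siControl RAS library, without overlap. Nearly all of that sum was CD68 (means of 4.76 and 18.8 CPM), and only 1 gene of the list was tested.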

How the data were processed

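The authors deposited 1 table of whole-number counts per Ensembl gene, not normalised. Per the submitters' processing notes, which give no roles, RSEM 1.2.12, Bowtie2 and hg19 were used. Annotation, filters and strand use: not given in the sources used here; antisense genes named for COL4A2, COL5A1 and COL18A1 had 0 counts. Libraries were made with Lexogen QuantSeq, per the labels' protocols. Where the genotype labels say knockout or knock-in, the protocols describe siRNA and lentivirus, which is followed.

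Symbols were matched by Ensembl ID (52301 IDs, 90.6%). In edgeR 4.0.16 (R 4.3.3) all 15 libraries were fitted in 1 model with TMM, the default filter (13516 genes, 99.8% of counts) and a robust two-sided quasi-likelihood F test, Benjamini-Hochberg adjusted over all tested genes. SE is the log2 difference divided by the root of F. Before use the test was tried on simulated counts with changes set only in knockdown cells, and that trial is not used as support here. Libraries of 1 group correlated at 0.969 to 0.979 and differed beyond sampling noise (chi-square per degree of freedom 3.53 to 8.63). Same-numbered libraries of different groups correlated at -0.081 to 0.098 in their deviations from group means. The labels do not say what a replicate number shares, so the numbers were not taken as pairs. Some structure by number was seen. On the fourth principal component, replicate 3 of siControl RAS, wild-type and R298P METTL14 lay at -17.5, -23.0 and -23.1, against -4.86 to 21.7 elsewhere. Results with a replicate block are given below.

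The collagen genes, classes and lists were chosen with earlier results of these data known. Collagen genes at 10 CPM or called are named; those with the 3 largest called changes in a comparison, and COL1A1, COL1A2, COL3A1, COL4A1, COL4A2, COL6A1, COL6A2 and COL6A3, are given by library; from pathway lists, up to 3 called genes with the largest change. Alternatives used DESeq2 1.42.0, limma-voom (limma 3.58.1), other scalings, no filter, only the groups compared, a replicate block, and each library left out.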

Additional observations from a re-analysis of the deposited data

How the results depend on the processing

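Of 71 calls of a collagen gene in a comparison, 60 were kept under every alternative run, 11 were lost in at least 1 and 0 reversed, while 11 gene and comparison pairs without a call gained one in at least 1. Counts of collagen genes stayed within 1.5 times the reported ones under other tools, scalings and filters, with 3 exceptions: knockdown against siControl RAS had 1 higher gene with only the 2 groups compared, R298P against wild-type METTL14 had 1 higher gene with DESeq2 (COL4A2), and siControl RAS against control had 2 lower genes with no filter (COL17A1 added). With a replicate block the counts of higher and lower genes were 23 and 1 for siControl RAS against control, 2 and 15 for knockdown against siControl RAS, 20 and 1 for knockdown against control, 5 and 0 with wild-type METTL14, 7 and 0 with R298P METTL14, and 0 and 0 between the add-backs. In the check of pairing 10 of 15 libraries correlated best with their own number, a hint from the data and not the design.

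With each library left out in turn, siControl RAS against control had 22 to 23 higher and 1 lower gene, knockdown against siControl RAS 0 to 2 higher and 12 to 16 lower, and knockdown against control 18 to 21 higher and 1 lower. The add-backs had 3 to 5 higher genes with wild-type and 4 to 8 with R298P METTL14, 0 lower genes, and 0 in either direction between them. The cause of these differences was not tested. A lone count is worth 0.129 to 0.203 CPM, and the smallest detectable change was not computed. Some tested genes had means of about 10 CPM or less in every group (COL4A6, COL5A3, COL9A2, COL15A1, COL24A1, COL25A1). Their values rest on few counts, so a missing call there does not show an unchanged level.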

Other observations

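The same 4 collagen genes had the highest levels in control and in siControl RAS. In control the highest were COL1A1 (2698 ± 153 CPM), COL6A1 (1337 ± 88.7 CPM), COL1A2 (1256 ± 37.4 CPM) and COL6A3 (1007 ± 29.2 CPM), and the ranges of COL6A1 and COL1A2 overlapped. In siControl RAS the order was COL1A1 (11896 ± 505 CPM), COL1A2 (5234 ± 60.1 CPM), COL6A1 (4569 ± 317 CPM), and then COL6A3 (1352 ± 58.0 CPM) and COL3A1 (1348 ± 55.2 CPM), whose libraries overlapped. Below these the order differed: the next highest was COL4A2 in control (583 ± 27.7 CPM) and COL3A1 in siControl RAS.

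Some collagen genes too low to test had more counts in siControl RAS than in control, and others had fewer. COL11A2, a chain of cartilage fibrils, had 2 counts in control and 17 in siControl RAS, a ratio of 8.59 with an exact 95% interval of 2.04 to 76.7. It was found in the other groups too, with 25 counts in knockdown cells, 38 with wild-type and 7 with R298P METTL14. COL9A3 had 0 counts in control and stood at 0, 0.562 and 0.713 CPM in siControl RAS, and COL19A1 had 0 counts in control and stood at 0.272, 0.562 and 0 CPM, so each had 1 siControl RAS library at 0 like control. Fewer counts were found for COL17A1 (24 in control and 0 in siControl RAS), COL8A2 (23 and 13) and COL2A1 (4 and 0). The interval given for COL11A2 covers counting error only, and none of these genes was tested.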
